A study of Xenopus laevis with 8 samples.

Results

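The goblet and small secretory cell genes of the Xenopus laevis epidermis were followed through gastrulation in animal cap explants. Members were the gene IDs whose symbol, without its ending .L or .S, is otog, otogl, itln1, itln2, agr2, xbp1, foxa1, tph1, spdef or slc18a2. The rule found 14 gene IDs of 51017 in the deposited tables, under 9 of the 10 symbols, since no ID there carries the symbol otogl. The endings L and S mark homeologs, the copies of a gene on the long and short chromosomes of this allotetraploid frog. A filter on low counts left 11 members for testing, and itln2.L, slc18a2.L and otog.S fell below it.

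The explants came from wild-type, untreated embryos (genotype wt, treatment control), were cut at stage 8 and were grown into mucociliary organoids. They were collected when they had reached stage 9 (late blastula), 10.5 (early gastrula), 11.5 or 12.5 (late gastrula). Each stage has 2 libraries, titled ExpA and ExpB and called A and B here, which gives 8 libraries of poly-A RNA. The labels do not say whether a library is 1 explant or a pool, nor whether A and B are separate clutches, so p-values measure only the spread between these libraries. An animal cap is prospective ectoderm, cut to leave out the other germ layers, so it models the skin rather than the embryo. RNA of some endoderm markers was still counted in these explants, as given below.

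The embryonic frog epidermis is a mucus-secreting epithelium. Its goblet cells form in the outer layer and release mucins and lectins, while multiciliated cells, ionocytes and small secretory cells move in from the inner layer, and small secretory cells store serotonin and antimicrobial material in large vesicles. Making so much secreted protein calls on the folding machinery of the endoplasmic reticulum (ER), which the transcription factor Xbp1 adjusts as part of the unfolded protein response.

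The total counts lay between 33170889 and 45511790 per library, and scaling factors (TMM, the trimmed mean of M values) between 0.818 and 1.12. Levels below are CPM, counts scaled to a common library total of 1e+06 with these factors, and 3 counts correspond to between 0.0604 and 0.0980 CPM. Gene lengths were not used, so levels are compared between libraries and not between genes, apart from the homeolog shares below. Which homeolog holds the larger share of counts can depend on length, while the change of their ratio over stages does not. The RNA is of whole explants, so more cells of a type and more RNA per cell cannot be told apart in any value below.

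The genes fell into groups by their course. The secreted products otog.L and itln1.L and the folding enzyme agr2.S started at 6 counts or fewer per library and had reached at most 8.68% of their stage 12.5 level by stage 10.5. Both copies of xbp1 had reached between 38.9% and 52.1% by then. The serotonin enzyme gene tph1.S was highest at stage 11.5, foxa1.L fell, and slc18a2.L never exceeded 7 counts.

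**Figure D1:**
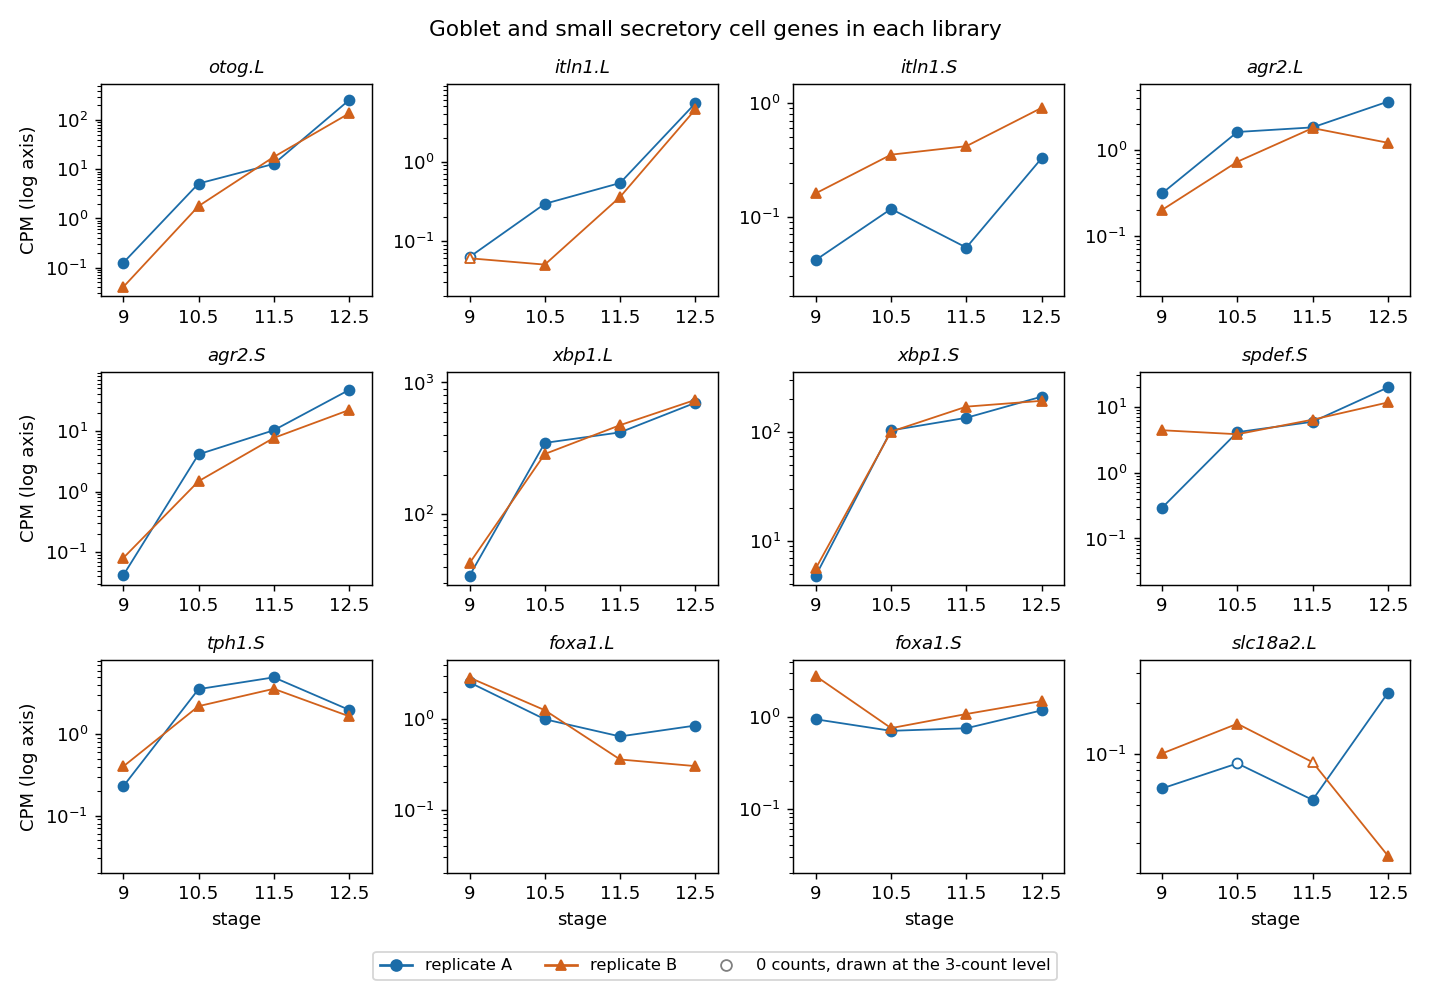
CPM (log axis) of 12 members in each library by stage, with replicates A and B joined by lines, and 0 counts drawn open at the level of 3 counts. otog.L reaches 256 and 137 CPM at stage 12.5, xbp1.L goes from 34.3 and 42.7 CPM at stage 9 to 348 and 287 at stage 10.5, and foxa1.L is highest at stage 9.

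Among the secreted products, otogelin is a large mucin-related glycoprotein known in mammals from the gel membranes of the inner ear, and a related otogelin-like mucin is known from the skin mucus of Xenopus tropicalis. At stage 9, otog.L (gene42537) had 6 counts in A and 2 in B (0.125 and 0.0403 CPM). At stages 10.5 and 11.5 its level was 5.13 and 12.9 CPM in A and 1.78 and 17.9 CPM in B. By stage 12.5 it had reached 7823 counts in A and 5440 in B, or 256 and 137 CPM. Both libraries of each stage lay above both libraries of the stage before. The log2 fold change was 5.33 ± 0.78 (SE) from stage 9 to 10.5 (adjusted p = 0.0012, edgeR's quasi-likelihood test on all 8 libraries with Benjamini-Hochberg adjustment) and 11.17 ± 0.81 from stage 9 to 12.5 (adjusted p = 2.8e-05).

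The last step of otog.L depended on how the libraries were modelled. From stage 11.5 to 12.5 its log2 fold change was 3.67 ± 0.53 with an adjusted p of 0.096 by stage alone. With the replicate letter as a block it was 3.54 ± 0.39 with an adjusted p of 0.0146. From stage 10.5 to 11.5 the log2 fold change of otog.L was 2.16 ± 0.52 with an adjusted p of 0.52 by stage and 0.0947 with the block. In the authors' deposited table the log2 fold changes of otog.L were 4.81, 1.19 and 3.06 at successive steps, and their adjusted p-values were 1.5e-08, 0.0055 and 2.1e-24. DESeq2 run here by stage gave larger values at the later steps, 2.16 to stage 11.5 and 3.69 to stage 12.5. The deposited fold changes are thus not on the same scale as those computed here, and the reason was not tested.

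The identity of otog.L is uncertain between annotations. In the RefSeq table of assembly Xenopus_laevis_v10.1, otog.L is the gene LOC108713434, which the authors' table lists as a separate ID with at most 18 counts in any library. The same RefSeq table gives otog as an older name of otogl2.L, and lists otogl.L as LOC108710246, an ID with at most 31 counts in any library here. These IDs were looked up after the values had been seen. The values above belong to gene42537, whichever of these genes it is.

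Intelectin-1 is a secreted lectin that binds sugars of microbial surfaces, and in Xenopus it is made by the embryonic epidermis. itln1.L (gene16436) had, in order of stage, 0, 10, 20 and 166 counts in the A libraries and 0, 2, 12 and 180 in the B libraries. Its level at stage 12.5 was 5.42 CPM in A and 4.54 in B. It was thus at its highest in both stage 12.5 libraries, with no overlap with any earlier stage. Against a stage 9 floor of 3 counts per library, the mean CPM of itln1.L was at least 80.9-fold higher by stage 12.5 (adjusted p = 0.00044, edgeR) and at least 2.79-fold higher by stage 10.5 (adjusted p = 0.014). The 2 counts of stage 10.5 replicate B lie under that floor, so the bound at stage 10.5 holds for the mean only. The authors' deposited table did not call this step (log2 fold change 2.03, adjusted p = 0.20). The call at stage 10.5 was lost without stage 10.5 replicate A (adjusted p = 0.068) and in a fit of those 4 libraries alone (0.097).

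At the last step the log2 fold change of itln1.L was 3.46 ± 0.75 (adjusted p = 0.136 by stage) and 3.52 ± 0.55 with the block (adjusted p = 0.0232, edgeR). The S copy stayed at low counts. itln1.S (gene12359) had 2, 4, 2 and 10 counts over the successive A libraries and 8, 14, 14 and 36 over the B libraries. Replicate B was higher than A at every stage, by 2.78 to 7.78 times in CPM. From stage 9 to 12.5 its log2 fold change was 2.57 ± 1.21 (adjusted p = 0.100 by stage), and it was called with the block at 2.65 (adjusted p = 0.0165, edgeR). The related lectin gene itln2.L (gene14327) had at most 4 counts in any library and otog.S (gene12696) had 0 in all 8.

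Agr2 is a protein disulphide isomerase of the ER that mucin folding requires in the mouse intestine, and in Xenopus it is also known as a product of the cement gland, the adhesive organ of the tadpole head. agr2.S (gene5728) had 2 counts in A and 4 in B at stage 9. Over the 3 later stages its level was 4.11, 10.3 and 47.3 CPM in A and 1.48, 7.67 and 22.1 CPM in B. The stages did not overlap, and replicate A was the higher library from stage 10.5 on. The log2 fold change of agr2.S from stage 9 to 12.5 was 9.07 ± 0.80 (adjusted p = 6.3e-05, edgeR). From stage 11.5 to 12.5 it was 1.95 ± 0.53 by stage (adjusted p = 0.172) and 1.86 ± 0.29 with the block (adjusted p = 0.0204).

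agr2.L (gene10579) had 15, 55, 68 and 111 counts over the stages in A and 10, 29, 60 and 48 in B. It was higher at stage 12.5 than at stage 9 by 3.21 ± 0.71 on the log2 scale (adjusted p = 0.0056, edgeR). At stage 12.5 its replicate A lay above both stage 11.5 libraries and its replicate B below both. Its rise to stage 10.5 (2.17 ± 0.69, adjusted p = 0.034) was lost in 6 of 15 alternatives, which included leaving out stage 9 replicate A (adjusted p = 0.070), stage 9 replicate B (0.130) or stage 10.5 replicate A (0.186). It was also lost without either stage 11.5 library and in a fit of the 4 libraries alone (adjusted p = 0.056 in each).

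Cement gland markers moved with agr2. Of the 8 tested genes of a cement gland and hatching gland list, 5 were higher and 0 lower at stage 12.5 than at stage 9, against 31.9% and 28.9% of all genes. The summed level of its 9 genes was 19.4, 68.3, 64.0 and 221 CPM over the stages in A and 29.6, 55.9, 53.8 and 106 CPM in B. As with agr2.S, replicate A was the higher library at stage 12.5, but this order was not particular to them. Summed levels of multiciliated cell (3859 and 2012 CPM in A and B), ionocyte (687 and 449) and epidermal genes (16060 and 11880) shared it. Those of the endoderm, ER translocation and mucin lists were higher in B. The cement gland gene ag1.L, a relative of agr2, had 104 CPM in A and 38.6 in B at stage 12.5. The cement gland regulator pitx1.L had at most 6 counts in any library. Their part in the rise of agr2 was not tested.

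Among the regulators, Xbp1 is made active by splicing of its RNA by the ER sensor Ire1, and it switches on chaperone and secretion genes. xbp1.L (gene45069) had 34.3, 348, 419 and 702 CPM over the stages in A and 42.7, 287, 475 and 738 CPM in B. xbp1.S (gene12324) had 4.79, 103, 135 and 211 CPM in A and 5.58, 101, 171 and 193 CPM in B. Each stage lay above the one before for both copies, and the libraries of a stage differed by at most 1.27 times. The tables count whole genes, so spliced and unspliced xbp1 RNA cannot be told apart.

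From stage 9 to 10.5, xbp1.L rose by 3.05 ± 0.17 on the log2 scale (adjusted p = 3.4e-05) and xbp1.S by 4.30 ± 0.18 (adjusted p = 2.5e-05, edgeR). From stage 11.5 to 12.5 the log2 fold change of xbp1.L was 0.69 ± 0.16 by stage (adjusted p = 0.136) and 0.69 ± 0.14 with the block (adjusted p = 0.036). That of xbp1.S was 0.40 ± 0.15 (adjusted p = 0.28 by stage and 0.128 with the block).

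Spdef is an Ets transcription factor that goblet cells need in the mouse. spdef.S (gene9638) had 14 counts in A and 218 in B at stage 9, or 0.293 and 4.39 CPM, a 15-fold difference between libraries of 1 stage. Over the later stages it had 4.11, 5.90 and 19.6 CPM in A and 3.82, 6.35 and 11.6 CPM in B. Both stage 12.5 libraries lay above the other 6 libraries, and stage 9 replicate B lay above both stage 10.5 libraries. The log2 fold change from stage 9 to 12.5 was 2.73 ± 0.96 (adjusted p = 0.039, edgeR), and the call was lost in 8 of 15 alternatives. These were scaling by library size alone, fitting the 4 libraries of these stages alone, and leaving out any 1 library of stages 10.5, 11.5 or 12.5, with adjusted p from 0.055 to 0.140.

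The first step of spdef.S depended on which stage 9 library was kept. From stage 9 to 10.5 the log2 fold change was 0.76 ± 0.92 with all libraries, -0.13 without stage 9 replicate A (adjusted p = 0.80) and 3.75 without stage 9 replicate B (adjusted p = 0.0016, edgeR). The genes whose course was most like that of spdef.S over the 8 libraries were arhgef28.S (Pearson r = 0.990 of log2 CPM), sp7.S (0.983) and gadd45g.L (0.982). They were chosen over all 8 libraries, so they share its low value in stage 9 replicate A by that choice, with 0.627 CPM of sp7.S in A and 9.72 in B, and 7.77 CPM of gadd45g.L in A and 43.5 in B. In the authors' deposited table spdef.S had a log2 fold change of 1.08 from stage 11.5 to 12.5, with an adjusted p of 0.0131.

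The genes tied to small secretory cells did not move together. FoxA1 is a forkhead factor that small secretory cells require in Xenopus, and it also marks endoderm. foxa1.L (gene2352) had 2.55, 0.997, 0.644 and 0.850 CPM over the stages in A and 2.88, 1.26, 0.358 and 0.302 CPM in B. Both stage 9 libraries were the highest of the 8. From stage 9 to 12.5 it fell by 2.24 ± 0.61 on the log2 scale (adjusted p = 0.0139, edgeR), and without stage 12.5 replicate B the value was -1.67 (adjusted p = 0.057).

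foxa1.S (gene13000) had 0.940, 0.704, 0.751 and 1.18 CPM over the stages in A and 2.78, 0.754, 1.07 and 1.49 CPM in B. Its stages 9 and 12.5 overlapped, and the log2 fold change between them was -0.48 ± 0.58 (adjusted p = 0.50, edgeR). From stage 9 to 10.5 it was -1.35 ± 0.59 (adjusted p = 0.098), which passed without stage 9 replicate A (adjusted p = 0.024).

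Some endoderm markers moved with foxa1.L. Of 21 tested genes of an endoderm list, 5 were higher and 5 lower at stage 12.5 than at stage 9, against 31.9% and 28.9% of all genes, with a median log2 fold change of -0.62. sox17a.L, a defining endoderm factor, had 8.53 and 7.75 CPM at stage 9 and 1.70 and 1.84 at stage 12.5, and sox17a.S and mix1.L fell by 3.15 and by 4.54 on the log2 scale (adjusted p = 0.0092 and 0.0032, edgeR). The summed level of the 28 list genes went the other way, from between 149.7 and 190.5 CPM at stage 9 to between 657.6 and 724.4 at stage 12.5, because a2m.S alone held 615 and 585 CPM there. Of the 28 genes, 2 never exceeded 3 counts. Their part in the fall of foxa1.L was not tested.

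Tph1 is tryptophan hydroxylase, the rate-limiting enzyme of serotonin synthesis. tph1.S (gene34563) had 0.230, 3.58, 4.99 and 1.99 CPM over the stages in A and 0.403, 2.21, 3.61 and 1.66 CPM in B. Both stage 12.5 libraries lay below both stage 10.5 and both stage 11.5 libraries. It rose by 3.18 ± 0.48 on the log2 scale to stage 10.5 (adjusted p = 0.0014, edgeR). The value from stage 11.5 to 12.5 was -1.23 ± 0.44 with an adjusted p of 0.26 by stage and 0.106 with the block, and DESeq2 with the block called it lower (adjusted p = 0.036). RefSeq's v10.1 table gives tph1.S as an older name of tph1.L.

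slc18a2.L (gene45565), the vesicular transporter that loads serotonin into storage vesicles, had between 0 and 7 counts. The highest count was in stage 12.5 replicate A, and stage 12.5 replicate B had 1. A change of this gene was not detectable at this depth. Of foxa1.L, foxa1.S, tph1.S and slc18a2.L, tph1.S was thus the one called higher in the comparison of stage 12.5 with stage 9 (log2 fold change 2.52 ± 0.47, adjusted p = 0.0027, edgeR).

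Counted over the steps, 7 of the 11 tested members were higher and 0 lower at stage 10.5 than at stage 9 (otog.L, itln1.L, agr2.L, agr2.S, xbp1.L, xbp1.S and tph1.S). Among all 28490 genes tested, 25% were higher and 23.3% lower. The median log2 fold change was 3.05 over the tested members and 0.11 over all genes. In the authors' deposited table, 6 of the 11 members with an adjusted p were higher and 1, foxa1.L, lower, against 21.7% and 22.6% of its genes.

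From stage 10.5 to 11.5, 0 of the 11 members were called by stage alone or with the block, where 4 had an unadjusted p under 0.05 in each fit, as did 7.48% of all genes by stage and 13.2% with the block. The background of adjusted calls was 0% by stage, and 0.0491% higher and 0.0246% lower with the block. DESeq2 called otog.L by stage, and otog.L, agr2.S and xbp1.S with the block, in fits that called 244 and 1233 of all genes. How many genes DESeq2 adjusted over is not given here, so its calls have no background share. The authors' deposited table called otog.L, 1 of 6 members with an adjusted p there, against 0.698% of its genes.

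From stage 11.5 to 12.5, 0 members were called by stage, where the background was also 0%. An unadjusted p under 0.05 was found for 6 members and for 14.9% of all genes. With the block 4 were higher (otog.L, itln1.L, agr2.S and xbp1.L) and 0 lower, against 2.21% higher and 2.37% lower of all genes. DESeq2 by stage called 3 (otog.L, agr2.S and xbp1.L), in a fit that called 1550 of all genes. Of 8 members with an adjusted p in the authors' deposited table, 4 were higher (otog.L, itln1.L, agr2.S and spdef.S), against 2.53% of its genes.

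From stage 10.5 to 12.5, 5 members were higher (otog.L, itln1.L, agr2.S, xbp1.L and xbp1.S) and 0 lower by stage, against 7.13% and 6.93% of all genes. Leaving out stage 10.5 replicate B gave a count of 1, and leaving out stage 12.5 replicate A a count of 2, in fits that called 156 and 1050 of all genes in place of 2032 higher and 1974 lower. xbp1.S also lost its call without stage 10.5 replicate A (adjusted p = 0.052, edgeR). Over the whole course, 8 were higher and 1, foxa1.L, lower at stage 12.5 than at stage 9, against 31.9% and 28.9%. The median over the tested members was 3.21 on the log2 scale, beside 0.13 over all genes.

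**Figure D2:**
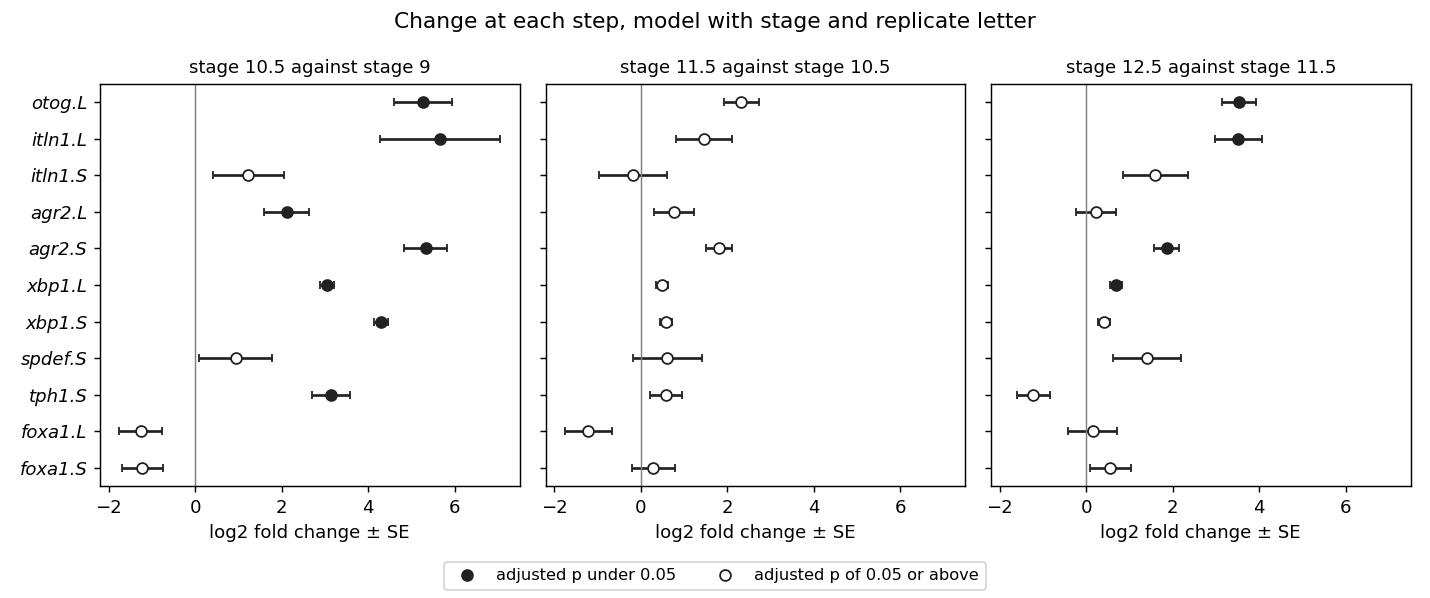
Log2 fold change with its SE for the 11 tested members at each step, from the edgeR model with stage and replicate letter, with filled points at an adjusted p under 0.05. 7 members are filled at the first step, 0 at the second, and otog.L, itln1.L, agr2.S and xbp1.L at the last.

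The share of the stage 12.5 level reached by stage 10.5 differed between members and between copies of a gene. At stage 10.5, xbp1.L had reached 49.6% of its stage 12.5 level in replicate A and 38.9% in B, and xbp1.S 49.0% and 52.1%. agr2.S had reached 8.68% and 6.71%, itln1.L 5.41% and 1.11%, and otog.L 2.01% and 1.30%. In both replicates both copies of xbp1 were thus further along than agr2.S, and agr2.S further than itln1.L and otog.L. The other copies did not follow this order. agr2.L had reached 44.5% and 60.3%, and itln1.S, at low counts, 35.9% and 38.8%. The regulator spdef.S had reached 21.0% and 33.0%. These shares are a description, and the difference between genes was not tested.

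**Figure D3:**
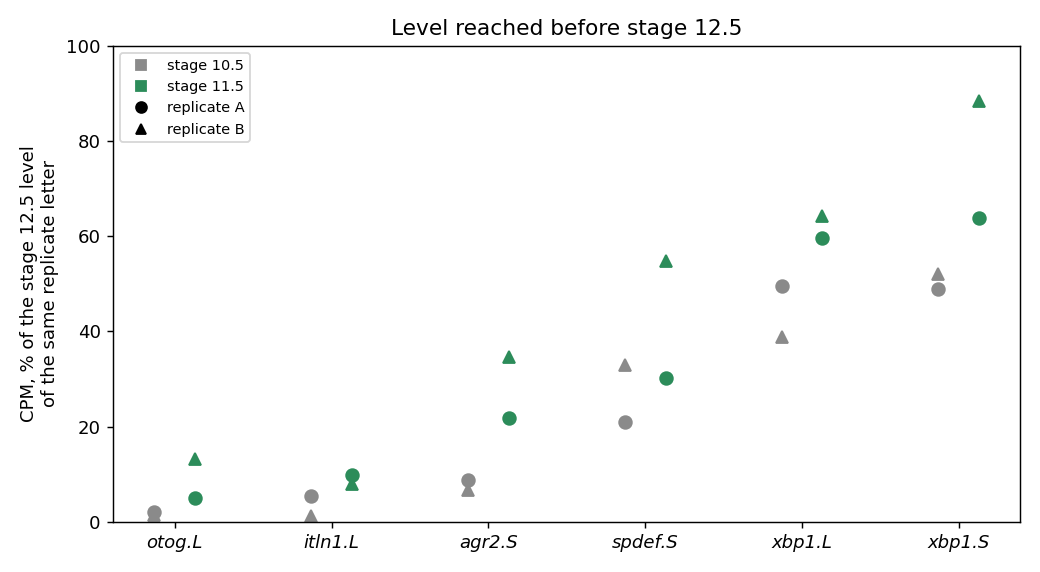
CPM at stages 10.5 and 11.5 as a percentage of the stage 12.5 CPM of the same replicate letter, for 6 members. At stage 10.5 the xbp1 copies lie between 38.9% and 52.1%, and otog.L at 2.01% and 1.30%.

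The courses of the members over the 8 libraries were close for part of the group. Pearson's r of log2 CPM was 0.98 between otog.L and agr2.S, 0.97 between otog.L and itln1.L, and 0.99 between the xbp1 copies. It was -0.85 between otog.L and foxa1.L. The 8 values share libraries and stages, so these are descriptions of a common time course.

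Outside the members, the nearest course to otog.L was that of znf534.L (r = 0.999), which went from 0.0836 and 0.0403 CPM at stage 9 to 32.8 and 15.2 at stage 12.5. The nearest to agr2.S were yeats4.S (0.9992), fam177b.L (0.9987) and srp19.S (0.9986), the last a subunit of the signal recognition particle that brings secreted proteins to the ER, with 14.3 and 15.2 CPM at stage 9 and 109.6 and 90.4 at stage 12.5. The nearest to xbp1.L were fut3.L (0.9995), a fucosyltransferase gene, and syt8.L (0.9994), of the synaptotagmin family of vesicle proteins. syt8.L went from 0.0418 and 0.0805 CPM to 100.1 and 89.4. The nearest to itln1.L was elovl7.S (0.994), a fatty acid elongase gene, and the nearest to tph1.S was coq4.L (0.991).

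The homeologs of 4 members could be compared as a share of the L copy in the CPM of both copies, which is not adjusted for length. For agr2 this share was 88.2%, 28.2%, 15.1% and 7.12% over the stages in A and 71.4%, 33.0%, 18.9% and 5.19% in B. It was lower at each step in both replicates, and the L copy held the larger share of counts at stage 9 and the S copy from stage 10.5 on. The stage 9 shares rest on 15 and 10 counts of the L copy, and on 2 and 4 of the S copy. The log2 ratio of L to S, with 1 CPM added to each, changed by -3.63 from stage 9 to 12.5 (adjusted p = 0.00031 over 4783 homeolog pairs, limma across the 4 stages), where 44% of pairs were called.

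For xbp1 the L share was 87.8% and 88.4% at stage 9 and between 73.6% and 79.3% at the later stages. The log2 ratio changed by -0.84 (adjusted p = 0.0015, limma). For itln1 the L share was 0%, 71.4%, 90.9% and 94.3% over the stages in A and 0%, 12.5%, 46.2% and 83.3% in B. The shares at stage 9 rest on 2 and 8 counts of the S copy with 0 of the L copy, which is under the floor. RefSeq's v10.1 table has no gene with the symbol itln1.S, so this pair rests on the authors' symbols. The log2 ratio changed by 2.04 (adjusted p = 0.0082). Without stage 12.5 replicate A this change was 1.67 with an adjusted p of 0.057. For foxa1 the L share was 73.1% and 50.9% at stage 9 and 41.9% and 16.9% at stage 12.5, with a change of -1.04 (adjusted p = 0.139 by stage, 0.030 with the block). Leaving out stage 9 replicate A made this change -0.62 (adjusted p = 0.24). Homeologs are similar in sequence, and how reads shared between copies were assigned is not stated.

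**Figure D4:**
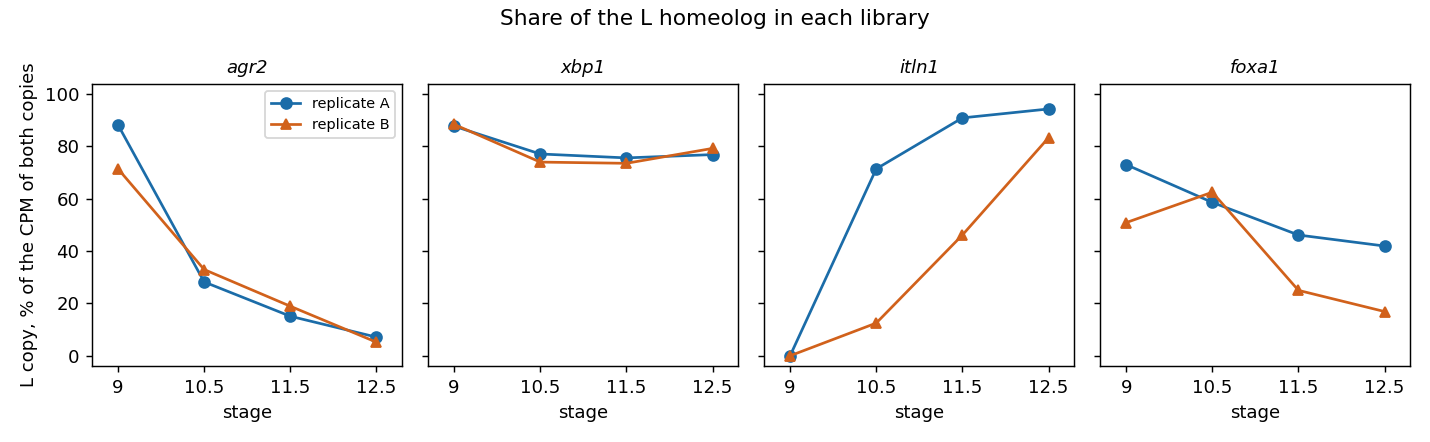
CPM of the L copy as a percentage of the CPM of both copies in each library by stage, for 4 homeolog pairs. The agr2 share falls from 88.2% and 71.4% to 7.12% and 5.19%, and the itln1 share rises from 0% to 94.3% and 83.3%. The stage 9 shares of agr2 and itln1 rest on at most 15 counts per copy and library.

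In the wider secretory machinery, genes of each list were called in both directions. Of 44 tested genes of ER protein folding and the unfolded protein response, 15 were higher and 16 lower at stage 12.5 than at stage 9, near the 31.9% and 28.9% of all genes, with a median log2 fold change of -0.35 beside 0.13 over all genes. Their summed level was between 2987 and 2996 CPM at stage 9 and between 4010 and 4500 at stage 12.5. atf4.S and atf4.L, copies of the transcription factor of the Perk branch, rose by 4.05 and 3.31, and herpud1.S, of ER-associated degradation, by 3.81 (adjusted p of at most 3.65e-05, edgeR). The sensors and degradation genes ern2.S, eif2ak3.S and sel1l.S fell by 6.07, by 4.86 and by 3.73 (adjusted p of at most 6.71e-05). eif2ak3.S, which encodes Perk, had 174.9, 15.5, 12.1 and 7.48 CPM over the stages in A and 212, 15.9, 12.1 and 5.85 CPM in B.

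At the last step the block called 2 of the 44 genes of that list higher and 2 lower, against 2.21% and 2.37% of all genes. The higher ones were hspa5.S, the chaperone BiP, from 216 and 182 CPM at stage 11.5 to 403 and 284 at stage 12.5 (log2 fold change 0.77 ± 0.11, adjusted p = 0.0182), and p4hb.L, a protein disulphide isomerase, from 685 and 628 to 1045 and 932 (0.59 ± 0.13, adjusted p = 0.045). The lower ones were eif2ak3.S and ern1.S, which encodes the xbp1-splicing sensor Ire1, from 37.5 and 28.8 CPM to 22.2 and 19.1 (-0.68 ± 0.13, adjusted p = 0.030, edgeR). By stage alone 0 genes of the list were called at this step, as for all genes.

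Of 53 tested genes of ER translocation and vesicle transport, 26 were higher and 15 lower at stage 12.5 than at stage 9, against 31.9% and 28.9% of all genes, with a median of 0.44. Their summed level was between 3612 and 3716 CPM at stage 9 and between 5002 and 5078 at stage 12.5. rab3d.L, a GTPase of secretory granules, rose by 4.94, ssr2.L, of the translocon-associated complex, by 2.95, and creb3l2.L, a transcription factor of secretory capacity, by 2.41 (adjusted p of at most 0.000604, edgeR). The coat genes sec24b.S and sec24b.L fell by 4.90 and by 3.86, and creb3l2.S fell by 2.24 (adjusted p of at most 0.0026), so the creb3l2 copies went opposite ways. Against 2.21% and 2.37% of all genes, the block called 4 genes of this list higher and 0 lower at the last step. Among them rab3d.L changed by 1.83 ± 0.33, rab27a.S, another granule GTPase, by 1.80 ± 0.20, and the translocon subunit gene sec61g.L by 0.64 ± 0.13 (adjusted p = 0.026, 0.0146 and 0.036).

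Of 24 tested genes of mucins and mucin glycosylation, 7 were higher and 10 lower at stage 12.5 than at stage 9, with 31.9% and 28.9% over all genes and a median of -0.07. The share that was higher was thus near the background, and the summed level was between 755.7 and 759.4 CPM at stage 9 and between 655.0 and 657.0 at stage 12.5. The glycosyltransferase genes b3gnt3.L, st6galnac2.S and galnt7.S rose by 5.93, 5.36 and 2.20 (adjusted p of at most 0.0019, edgeR), and c1galt1.S, b3gnt5.L and gcnt1.L fell by 3.59, by 3.42 and by 3.27 (adjusted p of at most 8.5e-05). At the last step 2 were called higher with the block and 0 lower, against 2.21% and 2.37% of all genes. c1galt1c1.L, the chaperone of C1galt1, changed by 0.96 ± 0.21 (adjusted p = 0.045). Its other copy c1galt1c1.S went the opposite way and was not called (-1.12 ± 0.26, adjusted p = 0.051, edgeR). galnt6, which starts mucin O-glycans, changed by 0.86 ± 0.12 (adjusted p = 0.0182). galnt6 had 106.4, 54.3, 60.3 and 112.5 CPM over the stages in A and 94.5, 55.9, 54.5 and 96.3 CPM in B.

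Of 21 tested genes of serotonin synthesis, storage and response, 4 were higher and 1 lower at stage 12.5 than at stage 9 (6 and 1 with the block), smaller shares than the 31.9% and 28.9% of all genes. The median was 0.39. scg3.L and chga.S, of secretory granule proteins, rose by 5.28 and 1.77, pts.L, of tetrahydrobiopterin synthesis, rose by 3.21 (adjusted p of at most 0.0025, edgeR). htr2c.S, a serotonin receptor gene, had 0.543 and 2.50 CPM at stage 9 and 0 counts in both libraries at stage 12.5. At the last step 0 of these genes were called by stage or with the block, where the block called 2.21% of all genes higher and 2.37% lower.

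**Figure D5:**
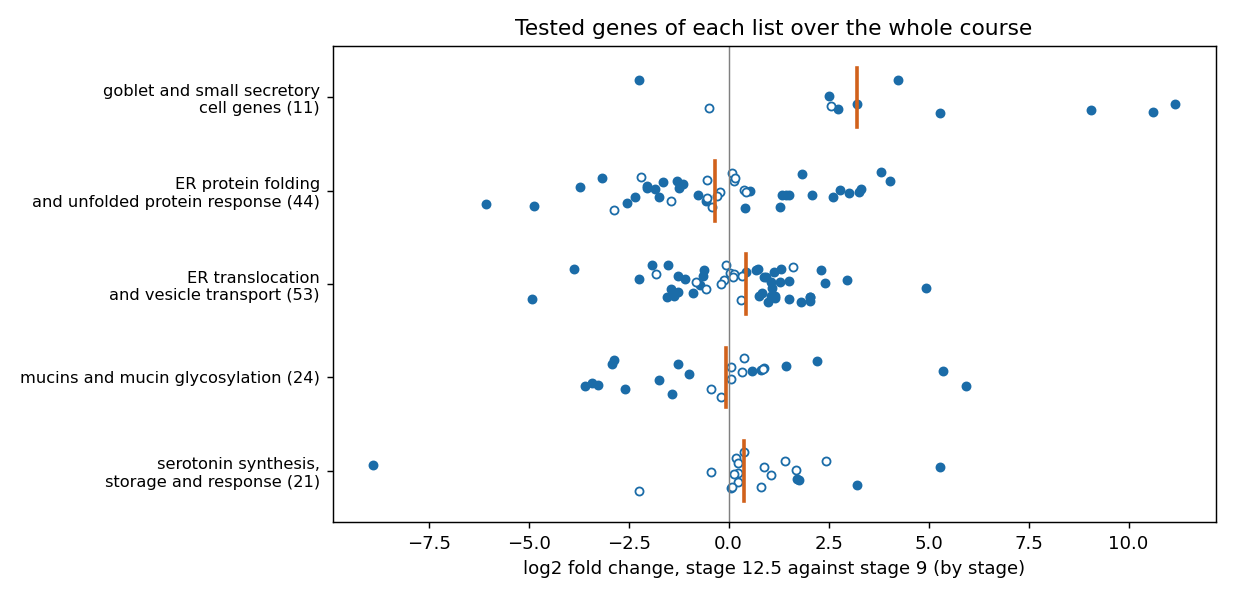
Log2 fold change from stage 9 to stage 12.5 of each tested gene, by list, with filled points called at an adjusted p under 0.05 and orange bars at the list median. The medians are 3.21 for the goblet and small secretory cell genes, -0.35, 0.44, -0.07 and 0.39 for the lists below.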

How the data were processed

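Per the labels' protocols, libraries of poly-A RNA were not stranded and were read from both ends, so overlapping and antisense genes are uncertain. The submitters' processing notes name FastQC 0.11.5, STAR 2.6.0b-1, featureCounts 1.6.3 and DESeq2 1.22.1. The genome build is not given in the sources used here. The authors deposited raw counts per gene and library, a table of symbols and, for each step, a table with mean normalized counts (a signal), log2 fold changes with standard errors, Wald scores and p-values.

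Counts were tested with edgeR 4.0.16 (limma 3.58.1, R 4.3.3) on all 8 libraries with stage as the only term, after filterByExpr by stage (minimum count 10) and TMM scaling. P-values were adjusted over 28490 genes, and a gene was called under 0.05. Standard errors were derived from the F statistic. The floor of 3 counts covers counting error only. Same-letter libraries deviated together (Pearson r from 0.374 to 0.597 over 6 pairs of stages), so a fit with the letter as a block is given where it changed a member's call. DESeq2 1.42.0, other scalings, no filter and leaving out each library were alternatives. The scripts were tested on simulated data.

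The members and lists were chosen with earlier results of these data known. All members are named. From each list up to 3 largest rises and 3 largest falls called from stage 9 to 12.5, and at the last step, could be named, and for each tested member the 3 genes with the highest Pearson r of log2 CPM (prior count 2). The cement gland, endoderm and other cell type lists follow the same rule. Symbols were matched to RefSeq's Xenopus_laevis_v10.1 table for 11 of 14 members, and itln1.S, otog.S and tph1.S had no match.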

Additional observations from a re-analysis of the deposited data

How the results depend on the processing

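Each of 55 member values (11 members, 5 comparisons) was recomputed in 15 settings. Of 825 recomputed values, 764 kept direction and call, 25 lost the call, 28 gained it and 8 changed sign, none of them a called value. Scaling by library size alone moved the median log2 fold change of all genes from stage 9 to 12.5 by -0.32, and turned foxa1.L from stage 11.5 to 12.5 to -0.012. Leaving out 1 library gave -0.58 to 1.00 for agr2.L and -0.73 to 0.75 for foxa1.L at that step, -1.08 to 0.47 for foxa1.S from stage 9 to 12.5, -2.08 to 0.94 for itln1.S from stage 10.5 to 11.5, and -0.13 to 3.75 for spdef.S from stage 9 to 10.5. The itln1 homeolog ratio changed by 1.67 to 2.41 with 1 library left out, and the foxa1 ratio by -1.46 to -0.62. Under the replicate block the foxa1 ratio changed by -1.04, and the limma test across the 4 stages gave an adjusted p of 0.030.

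From stage 10.5 to 11.5 the count of members called, 0 by stage, was 1 with no filter, 1 with DESeq2 by stage and 3 with DESeq2 and the block, where 41, 244 and 1233 of all genes were called. From stage 11.5 to 12.5 it was 4 with the replicate block, 3 with no filter, 3 with DESeq2 by stage and 5 with DESeq2 and the block (4 higher and tph1.S lower), where 1306, 605, 1550 and 3536 genes were called. From stage 10.5 to 12.5 it lay between 1 and 6 with 1 library left out. The causes were not tested. A setting that leaves a stage 1 library assumes that it varies like the others. In edgeR, pairing by letter changed, beside the 4 calls of the last step, the call of itln1.S from stage 9 to 12.5 and of the foxa1 ratio, and no other call of a member. With 2 libraries per stage and counts below 40, itln1.S, itln2.L and slc18a2.L are limited by depth.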

Other observations

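The other epidermal lists give the setting in which the secretory genes moved. From stage 9 to 12.5, 25 of 27 tested epidermal and basal genes, 18 of 23 multiciliated cell genes and 10 of 20 ionocyte genes were higher, and 0, 3 and 2 were lower (edgeR by stage), against 31.9% and 28.9% of all genes. The regulators mcidas.L and foxj1.S of multiciliated cells reached 111 and 61.5 CPM, and 341 and 220.5 CPM, in A and B at stage 12.5. From stage 11.5 to 12.5 the fit with the replicate block called 9 epidermal and 9 multiciliated cell genes higher and 0 ionocyte genes, against 2.21% of all genes. foxi1.L, the ionocyte regulator, had 11.3 CPM in A and 1.85 in B at stage 9, the opposite order to spdef.S in the same libraries.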
